A study of Azumapecten farreri with 9 samples.

Results

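Lineage and signal transcription factors of scallop hemocytes are described here across libraries of animals injected with PBS or with exosomes. Members are the genes whose deposited description contains GATA, runt-related, Krueppel-like factor, forkhead, homeobox, transcription factor Sox, transcription factor Sp, CCAAT/enhancer, nuclear receptor subfamily or the whole word ETS, with case ignored. The rule found 128 of 21617 genes, none of which matched more than 1 of these words. They comprised 69 homeobox, 21 forkhead, 8 ETS, 7 GATA, 7 nuclear receptor subfamily, 6 Sp, 5 Krueppel-like factor, 3 Sox and 2 CCAAT/enhancer-binding protein (C/EBP) genes. The wording runt-related matched 0 genes, and the gene described as transcription factor Runt, which lies outside the rule, is given separately.

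The animals were Zhikong scallops (Azumapecten farreri, also known as Chlamys farreri), and the RNA came from hemocytes, the circulating immune cells of the hemolymph. There were 9 poly(A) RNA libraries in 3 groups of 3. The PBS group received the saline vehicle alone. The titles LPS_T and NOR_T mark animals that received exosomes, which are small secreted vesicles. In these 6 libraries the titles and the group labels are at odds. Where the title says LPS_T, the label speaks of normal exosomes; where it says NOR_T, the label speaks of exosomes stimulated by LPS, a bacterial cell wall component. The groups are therefore called by title throughout, and no difference between them is read as an effect of LPS. The sources used here do not state exosome dose, time after injection, animal age or how many animals went into a library. The p-values therefore reflect library-to-library spread only, and that spread may be technical. In bulk RNA, fewer cells of a type and less RNA per cell cannot be told apart.

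Transcription factors of these families bind short DNA motifs through a conserved domain, and many are shared across animals. In vertebrates and flies, GATA, Runt and ETS factors direct the formation of blood cells. Krueppel-like and Sp factors share a zinc finger domain that binds GC-rich promoter elements, whereas homeobox and forkhead factors are best known for laying out tissues in the embryo and for holding cell identity later. Nuclear receptors are regulated in many cases by small lipophilic ligands. Roles named here come from vertebrates or flies unless stated, and gene names are those of the deposited descriptions, which rest on similarity.

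Total estimated counts were 19894628 in PBS 1 and between 32318310 and 45831950 in the other 8 libraries. Each sequenced fragment was worth about 3.86 to 3.96 counts, so the libraries held about 5130000 to 11750000 fragments. PBS 1 stood apart in having 17.8% of its counts on a pair of genes of a single scaffold, against 0.0318% to 0.0979% elsewhere. Levels are therefore compared between libraries as CPM, the counts scaled to a common library total after trimmed-mean (TMM) correction, and between genes as FPKM, the deposited per-length value, which is not corrected for such composition. The 43 genes of a hemocyte marker list summed to 16963 to 18319 CPM in PBS, 14113 to 14424 in LPS_T and 16294 to 17138 in NOR_T. Marker lists of other cell types also differed in level: nerve genes summed to 2640 to 2796 CPM in PBS, 4312 to 4701 in LPS_T and 2886 to 3096 in NOR_T, and gonad genes to 2541 to 2732, 2950 to 3208 and 1961 to 2034 CPM respectively. Muscle genes summed to 5795 to 6088 CPM in PBS, 6092 to 6570 in LPS_T and 6558 to 6847 in NOR_T. The sums and the single genes differed in pattern for nerve and hemocyte lists. Of 15 tested nerve genes 3 were called higher and 3 lower in LPS_T against PBS (median log2 0.08), and of 21 tested hemocyte genes 3 higher and 4 lower (median log2 0.02). Gonad genes had 15 of 47 tested called higher and 7 lower in LPS_T, and 3 higher and 21 lower in NOR_T. No gene of these lists was at 0 in all 9 libraries, and the part of these cell types in the results below was not tested.

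Most members were barely detected in hemocytes. Of the 128, 74 stayed below 1 FPKM in every library (57.8%, against 39.8% of all genes), and 49 reached 1 FPKM in at least 3 libraries and were tested (38.3%, against 54% of all genes). The 79 untested members had mean levels of 0.00175 to 0.809 FPKM with a median of 0.0495 FPKM. None was without counts in all 9 libraries. The share of members at a mean of 10 FPKM or more was 14.8%, beside 17.6% of all genes.

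Most of the barely detected members were homeobox and forkhead genes, the 2 largest families. Of the 69 homeobox genes, 48 stayed below 1 FPKM in every library, and so did 15 of the 21 forkhead genes. The 6 Hox-type genes that lie together on scaffold42017 (positions 635960 to 2377948) specify positions along the body axis, and their mean levels were 0.00175 to 0.156 FPKM, with no library above 0.501 FPKM. Of 7 LIM homeobox genes, which specify neurons and limbs, 1 was tested. Of 7 gene models named zinc finger homeobox protein 4-like, 1 was tested, and close copies of this kind may share reads. In contrast, all 5 Krueppel-like factor genes and both C/EBP genes were tested, as were 5 of 8 ETS, 4 of 7 GATA and 4 of 7 nuclear receptor subfamily genes. Of the 4 tested GATA genes, 3 were named for a GATA-type zinc finger alone, as described below. Just inside and just outside the level used for testing, forkhead box protein J3-like had a mean of 0.887 FPKM and was tested, whereas the untested member with the highest mean had 0.809 FPKM.

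The families were led by a few abundant genes. Krueppel-like factor 5 (KLF5), a zinc finger activator of epithelial and stress genes, had a mean of 1299 FPKM and ranked 84 among all 21617 genes. It alone made up 54.1% to 55.9% of the summed member FPKM in PBS, 46.1% to 46.9% in LPS_T and 57.5% to 58.3% in NOR_T. Its own group means were 1200 FPKM in PBS, 1257 in LPS_T and 1440 in NOR_T. The lower share in LPS_T than in PBS thus came with a larger member sum, 2670 to 2748 FPKM against 1776 to 2451. The homeobox gene vnd-like had a mean of 182 FPKM (vnd patterns the fly nerve cord) and Mohawk-like 125 FPKM (Mohawk governs tendon formation). An ETS-family transcription factor had a mean of 200.0 FPKM over the 9 libraries, made up of group means of 75.4 FPKM in PBS, 414 FPKM in LPS_T and 110 FPKM in NOR_T. It was thus above vnd-like and Mohawk-like in LPS_T and below both in PBS and NOR_T. KLF3, a repressor that recruits CtBP, had 82.6 FPKM, and hhex-like, named for the homeobox gene that vertebrates need for early blood and endothelium, had 68.8 FPKM. KLF12 had 67.9, the ETS factor Elk-3-like 61.8 and C/EBP gamma-like 59.5 FPKM. The highest GATA, Sox, nuclear receptor and forkhead genes had 30.4, 27.9, 25.5 and 14.5 FPKM.

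**Figure D1:**
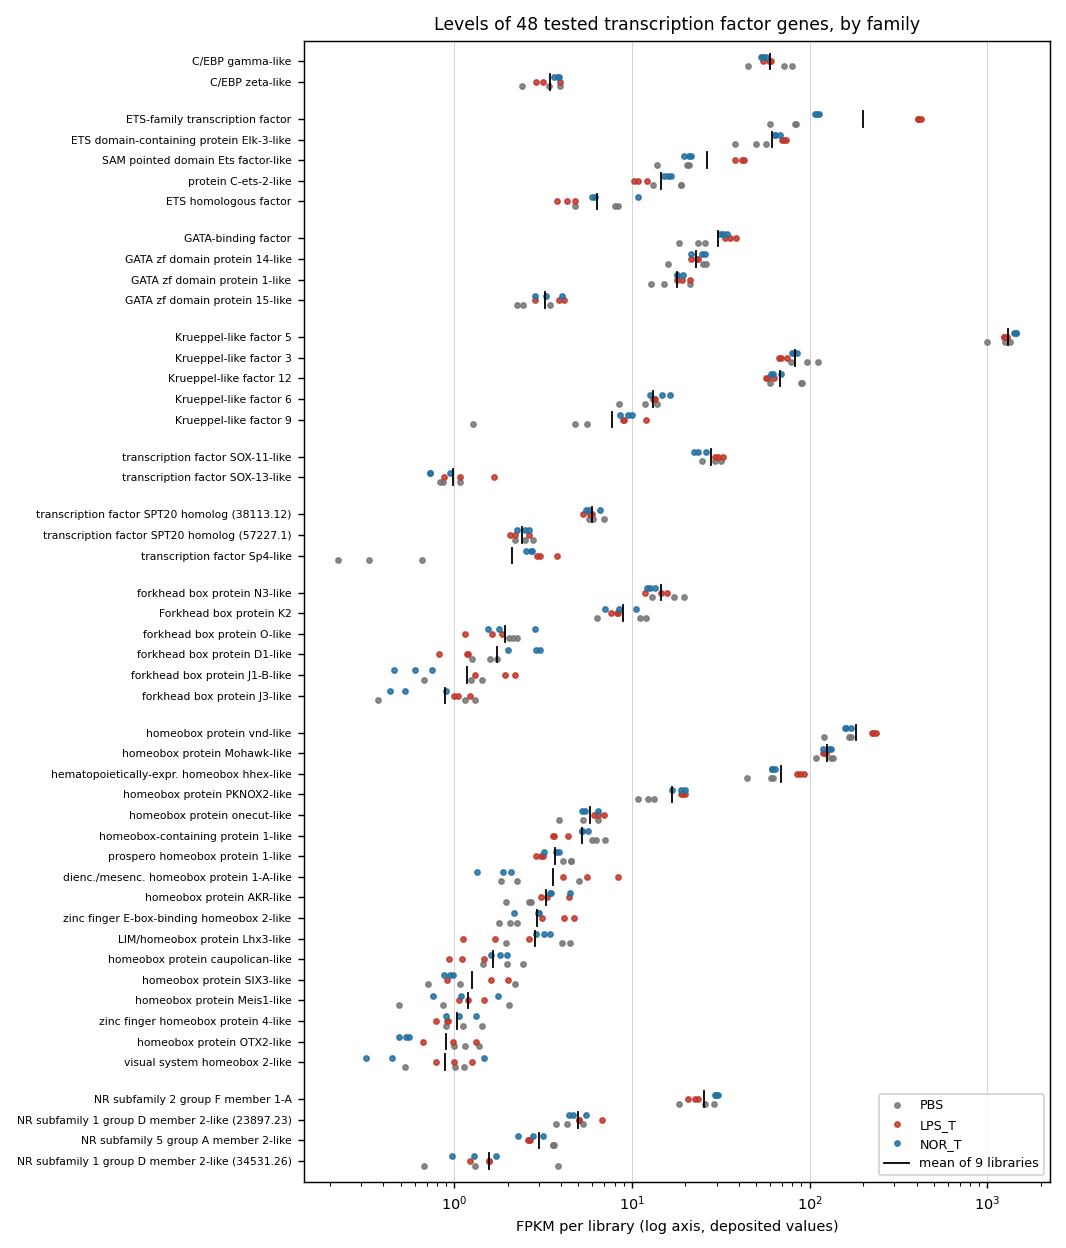
Deposited FPKM of 48 of the 49 tested members in each of the 9 libraries (log axis), ordered by family and by mean level. Points are libraries, coloured by title group, and black ticks are means of 9 libraries. KLF5 lies near 1299 FPKM, far above every other member, and the grey PBS points of Sp4-like lie apart from the rest of its row.

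Some descriptions matched the rule through a word while naming another kind of protein. These were 2 forkhead-associated domain proteins, which bind phosphorylated peptides, 2 homologs of SPT20, a subunit of the SAGA coactivator, and 5 proteins with a GATA-type zinc finger named for that domain alone. Of these 9 genes, 5 were tested, and none was called in any comparison. Gene ontology terms for DNA binding or DNA-binding transcription factor activity were attached to 100 of the 128 members (78.1%, against 3.88% of all genes). Since those terms and the descriptions both rest on sequence similarity, they are not separate evidence.

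A change was called at a Benjamini-Hochberg adjusted p under 0.05 in edgeR's quasi-likelihood test over all 11678 tested genes. Against PBS, the mean of both exosome groups gave 22 of 49 members called (44.9%, beside 29.5% of all tested genes), of which 11 were higher (14.6% of all genes were called higher) and 11 lower (15% of all genes). LPS_T against PBS gave 26 (53.1%, beside 33%), with 10 higher (background 17.9%) and 16 lower (15.2%). NOR_T against PBS gave 16 (32.7%, beside 24.9%), with 7 higher (11.4%) and 9 lower (13.5%). LPS_T against NOR_T gave 15 (30.6%, beside 21.5%), with 8 higher (12.6%) and 7 lower (8.89%). In each of the 4 comparisons the members' share exceeded the background share in this fit, and no test of that excess was made. The excess was not seen under every setting. In limma on log2(FPKM + 1), 5 of 49 members were called in NOR_T against PBS, beside 10.8% of all tested genes. Between the exosome groups 5 of 49 were called there, beside 11.9%. With no filter, 17 of 128 members were called in NOR_T, beside 15.7%, and 16 of 128 between the exosome groups, beside 13.7%.

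Most of these changes were small. Called changes of at least 2-fold against PBS numbered 3 for the exosome mean (6.12%, beside 5.27% of all tested genes) and 4 for LPS_T (8.16%, beside 8.8%). They numbered 5 for NOR_T against PBS (10.2%, beside 7.15%) and 4 between the exosome groups (8.16%, beside 8.5%). The median log2 change of the 49 members was -0.15, -0.10, -0.17 and 0.06 in the 4 comparisons in the order given above, beside medians of 0.00433, 0.0271, -0.00211 and -0.0047 for all tested genes. Without regard to sign, the members' median was 0.354, 0.429, 0.297 and 0.26, beside 0.269, 0.329, 0.275 and 0.243. LPS_T and NOR_T were compared with the same 3 PBS libraries. Set side by side, 11 members were called against PBS in both groups and in the same direction, 0 in opposite directions, 15 in LPS_T alone and 5 in NOR_T alone. The matching counts over all tested genes were not made, so these are not read as particular to the members.

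The number of lower calls depended on scaling. With library totals in place of TMM scaling, which gave a median of all genes of 0.13 for LPS_T in place of 0.0271 and of 0.0978 for the exosome mean in place of 0.00433, the exosome mean gave 11 higher and 6 lower members, LPS_T 10 higher and 6 lower, and NOR_T 7 higher and 6 lower. On deposited FPKM in limma the calls were 8 higher and 1 lower for the exosome mean, 11 higher and 2 lower for LPS_T, 4 higher and 1 lower for NOR_T, and 4 higher and 1 lower between the exosome groups. The calls that held under every setting tried, single libraries left out included, were 7 of 22 for the exosome mean, 9 of 26 for LPS_T, 2 of 16 for NOR_T and 5 of 15 between the exosome groups. For the exosome mean these were the ETS-family factor, the SAM pointed domain Ets factor, GATA-binding factor, KLF9, Sp4-like, PKNOX2-like and homeobox-containing protein 1-like. For LPS_T they were the same genes without KLF9, together with vnd-like, hhex-like and ZEB2-like. For NOR_T they were Sp4-like and PKNOX2-like, and between the exosome groups the ETS-family factor, the SAM pointed domain Ets factor, FOXD1-like, FOXJ1-B-like and DMBX1-A-like. Limma on FPKM ended 14, 17, 13 and 10 of the calls in the 4 comparisons. The losses given for single genes below do not list every setting.

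**Figure D2:**
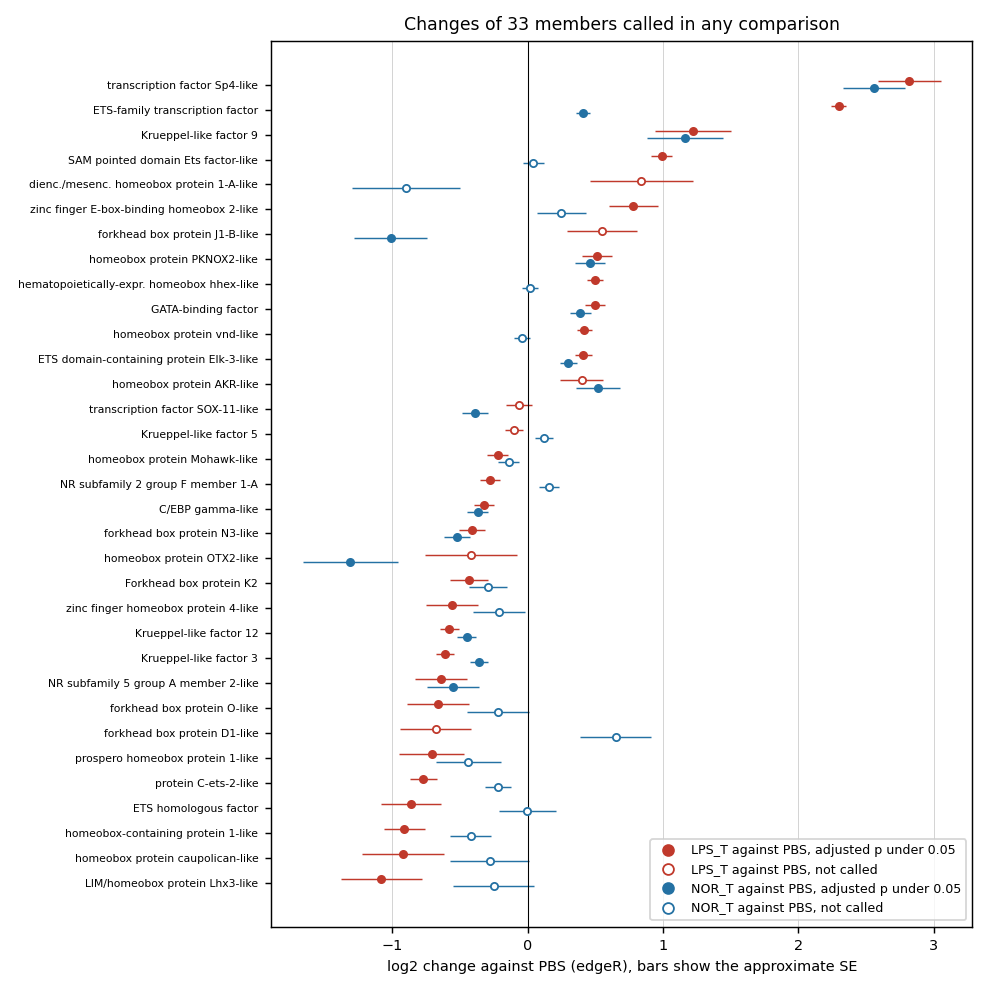
The log2 change (edgeR) of LPS_T and of NOR_T against PBS for 33 of the 34 members called in any of the 4 comparisons, ordered by the LPS_T value, with bars for the approximate SE. Filled points were called. Sp4-like and KLF9 lie to the right in both groups, the ETS-family factor at 2.30 in LPS_T and 0.41 in NOR_T, and FOXJ1-B-like at 0.55 and -1.01.

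All 5 tested ETS genes were called in at least 1 comparison: 3 higher and 2 lower in LPS_T against PBS, 2 higher and 0 lower in NOR_T against PBS, and 2 higher and 2 lower between the exosome groups. Of all 49 tested members, 34 were called in at least 1 comparison. The matching share of all tested genes was not made, so this is not read as particular to the family. The ETS-family transcription factor (evm.TU.scaffold38105.4, scaffold38105, positions 74921 to 80568, plus strand) showed the clearest response. Its level was 286, 274 and 277 CPM in PBS, 1354, 1441 and 1313 CPM in LPS_T, and 350.3, 388 and 371 CPM in NOR_T. The 3 groups did not overlap, and LPS_T stood far above both others. The log2 change against PBS was 2.30 (SE 0.06, adjusted p = 1.95e-13) in LPS_T and 0.41 (SE 0.05, adjusted p = 4.19e-05) in NOR_T, and LPS_T exceeded NOR_T by 1.89 (SE 0.05, adjusted p = 2.07e-12). The NOR_T call was lost on FPKM with a pseudocount of 0.1 in limma (adjusted p = 0.0767).

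Its 2 neighbours on the same scaffold, both described as ETS homologous factor (a name also used for an epithelial ETS factor of mammals), did not follow it. The tested neighbour measured 7.66, 9.18 and 8.94 CPM in PBS, 4.81, 4.30 and 5.13 CPM in LPS_T, and 11.9, 6.90 and 6.99 CPM in NOR_T. LPS_T was the lowest group and overlapped neither of the others. It fell by 0.86 (SE 0.22, adjusted p = 0.00606) in LPS_T against PBS, and LPS_T was 0.86 below NOR_T (log2 -0.86, SE 0.22, adjusted p = 0.00839, which became 0.0655 without NOR_T 1). Both calls were lost on FPKM in limma (adjusted p = 0.105 and 0.0917 with a pseudocount of 1). The other neighbour was untested. The 3 genes span 69194 bases.

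The SAM pointed domain-containing Ets transcription factor, known in mammals as SPDEF and needed for mucus-secreting cells, moved in LPS_T. It measured 63.7, 67.0 and 66.0 CPM in PBS, 133, 139 and 118 CPM in LPS_T, and 62.5, 71.7 and 68.7 CPM in NOR_T. All LPS_T libraries lay above all others, while NOR_T overlapped PBS. The estimated log2 change was 0.99 (SE 0.08, adjusted p = 1.07e-07) in LPS_T and 0.04 (SE 0.08, adjusted p = 0.750) in NOR_T against PBS, and 0.94 (SE 0.08, adjusted p = 2.51e-07) between LPS_T and NOR_T.

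Elk-3-like, an ETS factor that acts with serum response factor downstream of MAP kinases, rose in both groups. It measured 214, 194 and 224 CPM in PBS, 288, 289 and 265 CPM in LPS_T, and 248, 259.9 and 269.6 CPM in NOR_T. Every exosome library was above every PBS library, and the exosome groups overlapped. Against PBS, edgeR gave a log2 change of 0.41 (SE 0.06, adjusted p = 1.06e-04) in LPS_T and 0.30 (SE 0.06, adjusted p = 0.00243) in NOR_T. The difference between LPS_T and NOR_T was 0.11 (SE 0.06, adjusted p = 0.228). On FPKM in limma the NOR_T call was lost with pseudocounts of 1 and 0.1 (adjusted p = 0.112 and 0.150) and the LPS_T call with 0.1 (adjusted p = 0.0516).

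C-ets-2-like, a relative of the ETS2 oncogene product and a target of MAP kinase signals, fell in LPS_T. It measured 42.3, 42.0 and 42.4 CPM in PBS, 27.1, 24.9 and 22.2 CPM in LPS_T, and 35.4, 39.0 and 34.7 CPM in NOR_T. The 3 groups did not overlap in CPM, with NOR_T between the others. The log2 change against PBS was -0.77 (SE 0.10, adjusted p = 1.87e-05) in LPS_T and -0.22 (SE 0.10, adjusted p = 0.123) in NOR_T, and LPS_T differed from NOR_T by -0.55 (SE 0.10, adjusted p = 5.36e-04). On FPKM in limma the latter call was lost with pseudocounts of 1 and 0.1 (adjusted p = 0.0892 and 0.123), and the LPS_T call against PBS with 0.1 (adjusted p = 0.0584).

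**Figure D3:**
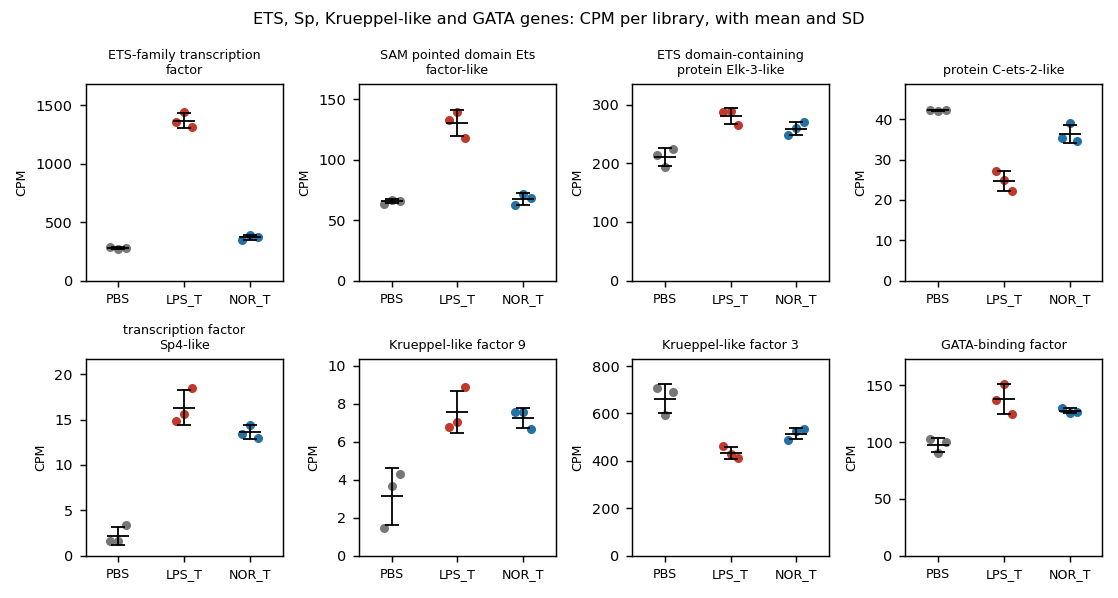
CPM in each library for 4 ETS genes, Sp4-like, KLF9, KLF3 and GATA-binding factor, with the mean and SD of 3 libraries per title group on axes that start at 0. The ETS-family factor is high in LPS_T (1313 to 1441 CPM) against 274 to 286 CPM in PBS, while Sp4-like is high in all 6 exosome libraries.

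Of the 3 tested Sp genes, 2 were the SPT20 homologs and were not called. The other, Sp4-like, was called and had the largest change of any tested member against PBS. Sp4-like (evm.TU.scaffold29353.1), related to an activator of GC-box promoters in neurons, measured 1.62, 1.66 and 3.36 CPM in PBS, 14.8, 15.6 and 18.4 CPM in LPS_T, and 13.4, 14.4 and 13.0 CPM in NOR_T. The exosome libraries lay well apart from PBS and close to each other. The fitted log2 change was 2.82 (SE 0.23, adjusted p = 1.43e-07) in LPS_T and 2.56 (SE 0.23, adjusted p = 1.02e-06) in NOR_T, with 0.26 (SE 0.20, adjusted p = 0.421) between them. The gene stayed at a low level, with a mean of 2.11 FPKM. It had 0.223, 0.331 and 0.660 FPKM in PBS and 2.53 to 3.79 FPKM in the exosome libraries. It thus reached the 1 FPKM needed for testing only through the groups in which it was high. Its neighbour on the scaffold, Sp9-like, was untested at a mean of 0.180 FPKM.

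The 5 Krueppel-like factors split. Against PBS, 1 was called higher and 2 lower in each exosome group, and 2 were called lower in LPS_T against NOR_T. KLF9, a zinc finger factor induced by steroid and thyroid hormones in vertebrates, measured 1.43, 3.66 and 4.30 CPM in PBS, 6.80, 7.07 and 8.87 CPM in LPS_T, and 7.59, 7.56 and 6.67 CPM in NOR_T. Every exosome library exceeded every PBS library, of which PBS 1 was the lowest. Its log2 change was 1.22 (SE 0.28, adjusted p = 0.00325) in LPS_T and 1.16 (SE 0.28, adjusted p = 0.00626) in NOR_T. Both calls were lost on FPKM in limma with a pseudocount of 0.1 (adjusted p = 0.0529 and 0.0865).

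KLF3 fell in both exosome groups. It measured 706, 594 and 690.0 CPM in PBS, 463, 428 and 412 CPM in LPS_T, and 487, 526 and 532 CPM in NOR_T. The groups did not overlap in CPM, and LPS_T was the lowest. The log2 change was -0.61 (SE 0.07, adjusted p = 3.66e-06) in LPS_T and -0.36 (SE 0.07, adjusted p = 8.05e-04) in NOR_T. LPS_T was below NOR_T by a log2 of -0.25 (SE 0.07, adjusted p = 0.0133), a call lost without LPS_T 3 (adjusted p = 0.0552) and with library totals as scaling (adjusted p = 0.123). The calls against PBS were lost on FPKM in limma (adjusted p = 0.0844 and 0.453 with a pseudocount of 1). So was the call between the exosome groups (adjusted p = 0.529).

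KLF12, a repressor that like KLF3 binds CtBP, measured 119.7, 122 and 126 CPM in PBS, 87.7, 82.7 and 76.3 CPM in LPS_T, and 94.3, 89.5 and 85.6 CPM in NOR_T. All exosome libraries were below all PBS libraries, and the exosome groups overlapped. It fell by 0.58 (SE 0.07, adjusted p = 1.2e-05) in LPS_T and by 0.45 (SE 0.07, adjusted p = 2.2e-04) in NOR_T on the log2 scale, again with the calls lost on FPKM in limma (adjusted p = 0.144 and 0.327).

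The abundant KLF5 measured 4953, 4334 and 4671 CPM in PBS, 4306, 4551 and 4149 CPM in LPS_T, and 4799, 5248 and 5108 CPM in NOR_T. PBS overlapped both exosome groups, while LPS_T and NOR_T did not overlap. It was not called against PBS (adjusted p = 0.248 in LPS_T and 0.202 in NOR_T), and LPS_T was below NOR_T by a log2 of -0.22 (SE 0.06, adjusted p = 0.0206). That call was lost without LPS_T 1, LPS_T 3, NOR_T 2 or NOR_T 3 (adjusted p = 0.0779, 0.0713, 0.0878 and 0.0586) and with library totals as scaling (adjusted p = 0.137). Limma on FPKM ended it as well (adjusted p = 0.577 with a pseudocount of 1). KLF6, an early response factor to injury, had 13.1 FPKM and was not called in any comparison.

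The only gene described as GATA-binding factor rose in both exosome groups, and it was the only called gene of its family. GATA factors of this kind are required for blood cell fate in vertebrates and flies. It measured 102, 90.5 and 99.8 CPM in PBS, 137, 151 and 125 CPM in LPS_T, and 130.2, 126 and 127 CPM in NOR_T. No exosome library overlapped PBS, and the exosome groups overlapped each other. The estimated log2 change was 0.50 (SE 0.08, adjusted p = 9.53e-05) in LPS_T, 0.39 (SE 0.08, adjusted p = 0.00124) in NOR_T and 0.11 (SE 0.07, adjusted p = 0.347) between them. In limma on FPKM the NOR_T call was lost (adjusted p = 0.0582).

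The gene described as transcription factor Runt, the DNA-binding partner of core-binding factor beta and a blood cell regulator in many animals, had a mean of 153 FPKM. It measured 315, 280 and 307 CPM in PBS, 275, 271 and 252 CPM in LPS_T, and 291, 287 and 289 CPM in NOR_T. LPS_T lay just below the lowest PBS library, and NOR_T lay within the PBS range. Against PBS, edgeR gave a log2 change of -0.17 (SE 0.06, adjusted p = 0.0279) in LPS_T and -0.06 (SE 0.06, adjusted p = 0.528) in NOR_T, with -0.12 (SE 0.06, adjusted p = 0.167) between the exosome groups. It was chosen for mention because the wording of the rule misses it. Whether its LPS_T call held under the other settings was not checked.

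Of the C/EBP genes, C/EBP gamma-like fell in both exosome groups and C/EBP zeta-like was not called. C/EBP gamma is a partner of other C/EBP and ATF4 proteins. It measured 117, 141 and 130.4 CPM in PBS, 109, 100.3 and 103 CPM in LPS_T, and 96.6, 106 and 97.6 CPM in NOR_T. In CPM all exosome libraries were below all PBS libraries, with PBS 1 the nearest to them. In deposited FPKM, PBS 1 (45.1) lay below every exosome library (53.4 to 60.7). The fitted log2 change was -0.32 (SE 0.07, adjusted p = 0.00403) in LPS_T and -0.37 (SE 0.07, adjusted p = 0.00165) in NOR_T. Both calls were lost with library totals as scaling (adjusted p = 0.263 and 0.136). On FPKM in limma both were lost as well (adjusted p = 0.688 and 0.529 with a pseudocount of 1).

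Among Sox genes, SOX-11-like, related to a regulator of neural progenitors, fell in NOR_T, while SOX-13-like was not called. SOX-11-like measured 78.8, 64.0 and 69.5 CPM in PBS, 64.4, 73.4 and 64.9 CPM in LPS_T, and 48.6, 54.1 and 58.6 CPM in NOR_T. NOR_T lay below all other libraries, and LPS_T overlapped PBS. Its log2 change was -0.39 (SE 0.10, adjusted p = 0.00662) in NOR_T and -0.06 (SE 0.10, adjusted p = 0.658) in LPS_T against PBS, and LPS_T exceeded NOR_T by 0.33 (SE 0.10, adjusted p = 0.0203). The last call was lost without LPS_T 2, NOR_T 1 or NOR_T 2 (adjusted p = 0.0998, 0.0914 and 0.0522), and the NOR_T call against PBS with library totals as scaling (adjusted p = 0.0752). On FPKM in limma both were lost (adjusted p = 0.222 and 0.37 with a pseudocount of 1).

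Of 6 tested forkhead genes, 0 were called higher against PBS, while 3 were called lower in LPS_T and 2 in NOR_T. FOXN3-like, whose relatives were first known as checkpoint suppressors, measured 62.8, 57.8 and 66.5 CPM in PBS, 52.9, 40.6 and 47.5 CPM in LPS_T, and 44.8, 42.6 and 43.1 CPM in NOR_T. All exosome libraries lay below PBS. It changed by a log2 of -0.41 (SE 0.10, adjusted p = 0.00436) in LPS_T and -0.52 (SE 0.10, adjusted p = 0.00103) in NOR_T, and the LPS_T call was lost with library totals as scaling (adjusted p = 0.133). In limma on FPKM both calls were lost (adjusted p = 0.430 and 0.253 with a pseudocount of 1).

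FOXK2, a repressor of autophagy genes in mammals, measured 17.5, 22.6 and 21.0 CPM in PBS, 15.7, 14.7 and 15.2 CPM in LPS_T, and 19.8, 13.9 and 16.3 CPM in NOR_T. LPS_T lay below PBS, and NOR_T overlapped it. The log2 change in LPS_T was -0.43 (SE 0.14, adjusted p = 0.0284), a call lost without PBS 2, PBS 3 or any single LPS_T library (adjusted p = 0.0594 to 0.114). Library totals as scaling also ended it (adjusted p = 0.227). So did limma on FPKM (adjusted p = 0.526 with a pseudocount of 1).

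FOXO-like, a merged gene model related to the effectors of insulin signalling that Akt keeps out of the nucleus, measured 11.8, 9.03 and 8.70 CPM in PBS, 6.57, 4.73 and 7.26 CPM in LPS_T, and 11.3, 6.50 and 7.29 CPM in NOR_T. LPS_T did not overlap PBS, and NOR_T spread across both. The log2 change in LPS_T was -0.66 (SE 0.23, adjusted p = 0.0369), which was lost without PBS 1, PBS 2, LPS_T 1 or LPS_T 2 (adjusted p = 0.0902, 0.0533, 0.0686 and 0.150). Library totals as scaling also ended the call (adjusted p = 0.122). So did limma on FPKM (adjusted p = 0.258 with a pseudocount of 1). Of 15 tested insulin, PI3K and Akt pathway genes, 5 were called higher and 1 lower in LPS_T, and 3 higher and 2 lower in NOR_T, beside the 33% and 24.9% of all tested genes called. The PI3-kinase catalytic subunit alpha-like gene fell in both, by 0.83 (SE 0.14, adjusted p = 2.14e-04) and 0.66 (SE 0.14, adjusted p = 0.00206).

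A pair of low-level forkhead genes separated the exosome groups. FOXD1-like, named for a factor of kidney stroma, measured 3.67, 3.49 and 3.23 CPM in PBS, 1.67, 2.48 and 2.31 CPM in LPS_T, and 5.73, 6.43 and 4.16 CPM in NOR_T. Every LPS_T library was below PBS and every NOR_T library above it. Neither group was called against PBS (adjusted p = 0.0581 for LPS_T and 0.0770 for NOR_T), and LPS_T was below NOR_T by a log2 of -1.33 (SE 0.26, adjusted p = 0.00127).

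FOXJ1-B-like, the relative of the vertebrate master regulator of motile cilia, went the other way. It measured 3.74, 4.72 and 5.52 CPM in PBS, 8.35, 5.11 and 7.17 CPM in LPS_T, and 1.74, 2.98 and 2.32 CPM in NOR_T. NOR_T lay below all PBS libraries, and LPS_T overlapped PBS and lay above all of NOR_T. The log2 difference between LPS_T and NOR_T was 1.56 (SE 0.27, adjusted p = 4.12e-04). Against PBS it was 0.55 (SE 0.26, adjusted p = 0.118) in LPS_T and -1.01 (SE 0.27, adjusted p = 0.0114) in NOR_T, where the call was lost without PBS 3 or NOR_T 1 (adjusted p = 0.0524 and 0.0553). The NOR_T call was also lost on FPKM in limma (adjusted p = 0.205 with a pseudocount of 1).

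Markers of ciliated epithelium moved in the same direction as FOXJ1-B-like. The 82 genes of the ciliary list summed to 667, 851 and 711 CPM in PBS, 1176, 1218 and 1197 CPM in LPS_T, and 504, 489.6 and 485 CPM in NOR_T, without overlap between groups. Of its 66 tested genes, 42 were called higher and 0 lower in LPS_T against NOR_T, 38 higher and 2 lower in LPS_T against PBS, and 3 higher and 31 lower in NOR_T against PBS. No gene of the list was at 0 in all 9 libraries. The gonad list moved the same way, with 24 of its 47 tested genes called higher and 4 lower in LPS_T against NOR_T. The part of ciliated or gonad cells in the FOXJ1-B-like difference was not tested.

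**Figure D4:**
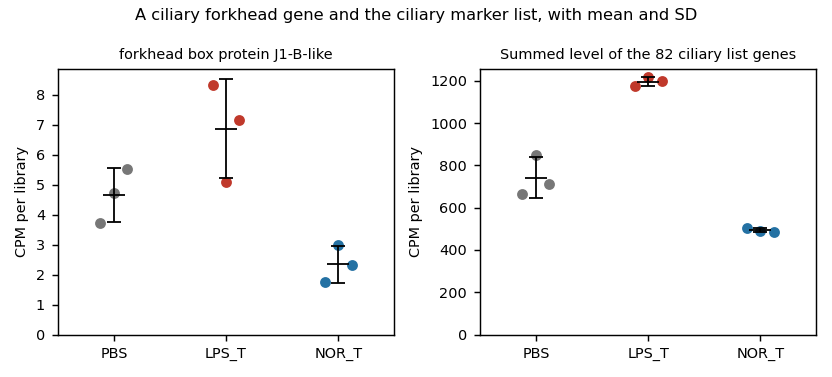
CPM of FOXJ1-B-like (left) and the summed CPM of the 82 ciliary list genes (right) in each library, with the mean and SD of 3 libraries per title group, on axes that start at 0. Both are highest in LPS_T and lowest in NOR_T, where the summed list lies at 485 to 504 CPM.

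The homeobox genes made up the largest family, with 18 of 69 tested. Of these, 4 were called higher and 6 lower in LPS_T, 2 higher and 2 lower in NOR_T, and 4 higher and 1 lower in LPS_T against NOR_T. The most abundant, vnd-like (evm.TU.scaffold14065.38), measured 349.9, 331 and 343 CPM in PBS, 455, 481 and 434 CPM in LPS_T, and 311, 335 and 349 CPM in NOR_T. LPS_T lay above all other libraries, and NOR_T overlapped PBS. The log2 change was 0.42 (SE 0.06, adjusted p = 3.3e-05) in LPS_T and -0.04 (SE 0.06, adjusted p = 0.653) in NOR_T against PBS, and 0.46 (SE 0.06, adjusted p = 1.62e-05) between the exosome groups.

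The pattern of hhex-like was close to that of vnd-like. It measured 137, 128 and 135 CPM in PBS, 182, 193 and 192 CPM in LPS_T, and 129, 142 and 134 CPM in NOR_T. Again LPS_T stood above the rest without overlap, and NOR_T overlapped PBS. The estimated log2 change was 0.50 (SE 0.06, adjusted p = 9.01e-06) in LPS_T and 0.01 (SE 0.06, adjusted p = 0.895) in NOR_T against PBS, and 0.49 (SE 0.06, adjusted p = 1.48e-05) between them. The LPS_T calls of vnd-like and hhex-like against PBS held under every setting tried. Their calls between the exosome groups were lost on FPKM in limma with pseudocounts of 1 and 0.1 (adjusted p = 0.0861 and 0.128 for vnd-like, 0.0681 and 0.104 for hhex-like).

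PKNOX2-like, a TALE homeobox protein that pairs with Pbx partners, rose in both exosome groups. It measured 22.7, 19.1 and 17.9 CPM in PBS, 27.6, 29.6 and 27.2 CPM in LPS_T, and 28.6, 28.5 and 24.7 CPM in NOR_T. All exosome libraries were above PBS and the exosome groups overlapped. Against PBS, edgeR gave a log2 change of 0.51 (SE 0.11, adjusted p = 0.00269) in LPS_T, 0.46 (SE 0.11, adjusted p = 0.00703) in NOR_T and 0.05 (SE 0.11, adjusted p = 0.838) between them.

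ZEB2-like, related to a repressor of E-cadherin, rose in LPS_T. It measured 17.8, 10.6 and 13.6 CPM in PBS, 24.6, 19.2 and 27.3 CPM in LPS_T, and 17.8, 13.6 and 17.9 CPM in NOR_T. LPS_T lay above the other libraries, and NOR_T overlapped PBS. The fitted log2 change was 0.78 (SE 0.18, adjusted p = 0.00374) in LPS_T and 0.25 (SE 0.18, adjusted p = 0.361) in NOR_T. The difference of 0.53 (SE 0.18, adjusted p = 0.0465) between the exosome groups was lost with DESeq2-type size factors in edgeR (adjusted p = 0.0504) and without PBS 3, LPS_T 1, LPS_T 3, NOR_T 1, NOR_T 2 or NOR_T 3 (adjusted p = 0.0548 to 0.212). Library totals as scaling also ended that call (adjusted p = 0.0516). So did limma on FPKM (adjusted p = 0.165 with a pseudocount of 1).

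AKR-like, a TGIF-type homeobox protein, measured 10.1, 9.51 and 9.45 CPM in PBS, 11.8, 11.2 and 15.3 CPM in LPS_T, and 12.2, 13.1 and 16.4 CPM in NOR_T. All exosome libraries exceeded PBS. Its log2 change was 0.52 (SE 0.16, adjusted p = 0.0251) in NOR_T and 0.40 (SE 0.16, adjusted p = 0.0648) in LPS_T, and the NOR_T call was lost without PBS 2, PBS 3 or NOR_T 3 (adjusted p = 0.0670, 0.0674 and 0.142). Limma on FPKM ended it as well (adjusted p = 0.0905 with a pseudocount of 1).

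Homeobox-containing protein 1-like, related to a telomere-binding protein, fell in LPS_T. It measured 27.1, 17.8 and 21.4 CPM in PBS, 13.2, 11.1 and 10.6 CPM in LPS_T, and 15.5, 17.7 and 16.0 CPM in NOR_T. The 3 groups did not overlap in CPM, and NOR_T lay between the others. The log2 change was -0.91 (SE 0.15, adjusted p = 2.5e-04) in LPS_T and -0.42 (SE 0.15, adjusted p = 0.0540) in NOR_T against PBS. LPS_T differed from NOR_T by -0.49 (SE 0.15, adjusted p = 0.0287), a call lost without LPS_T 2, LPS_T 3 or NOR_T 2 (adjusted p = 0.0903, 0.106 and 0.105). Limma on FPKM ended it as well (adjusted p = 0.137 with a pseudocount of 1).

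Mohawk-like measured 149, 129 and 127 CPM in PBS, 119, 119.6 and 110.2 CPM in LPS_T, and 112, 131 and 125 CPM in NOR_T. LPS_T lay below PBS and NOR_T overlapped it. The log2 change in LPS_T was -0.22 (SE 0.08, adjusted p = 0.0421) and was lost without PBS 1 or any single LPS_T library (adjusted p = 0.0642 to 0.143), with library totals as scaling (adjusted p = 0.499) and with the replicate number as a block (adjusted p = 0.0527). On FPKM in limma the log2 change was -0.036 (adjusted p = 0.897 with a pseudocount of 1), and the call was lost.

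PROX1-like, a merged gene model named for the regulator of lymphatic endothelium, measured 6.79, 4.65 and 4.28 CPM in PBS, 3.31, 3.07 and 3.09 CPM in LPS_T, and 3.82, 4.20 and 3.40 CPM in NOR_T. PBS 1 was the highest library, and no exosome library reached PBS. The log2 change in LPS_T was -0.71 (SE 0.24, adjusted p = 0.0324), lost without PBS 1 (adjusted p = 0.121) or any single LPS_T library (adjusted p = 0.0657 to 0.0813). Library totals as scaling (adjusted p = 0.0853) and no filter (adjusted p = 0.0704) also ended the call. So did limma on FPKM with a pseudocount of 1 (adjusted p = 0.065).

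Several homeobox genes of eye and brain development were close to the detection limit and rested on few fragments. DMBX1-A-like measured 2.37, 3.56 and 1.33 CPM in PBS, 5.98, 4.11 and 2.86 CPM in LPS_T, and 0.955, 1.57 and 1.38 CPM in NOR_T. LPS_T lay above NOR_T, and PBS overlapped both. The difference between LPS_T and NOR_T was a log2 of 1.74 (SE 0.40, adjusted p = 0.00438), and neither group was called against PBS (adjusted p = 0.109 for LPS_T and 0.119 for NOR_T).

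OTX2-like, a head patterning gene chosen after its values were seen, measured 4.17, 3.44 and 2.54 CPM in PBS, 2.46, 3.43 and 1.65 CPM in LPS_T, and 1.22, 1.48 and 1.38 CPM in NOR_T. NOR_T was below all other libraries, with a log2 change of -1.31 (SE 0.35, adjusted p = 0.0123). The NOR_T call was lost on FPKM in limma with a pseudocount of 1 (adjusted p = 0.0675).

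A further 3 called homeobox genes were also chosen after their values were seen. Lhx3-like, caupolican-like (named for an Iroquois gene of flies) and zinc finger homeobox protein 4-like fell in LPS_T by 1.08 (SE 0.30, adjusted p = 0.0119), 0.92 (SE 0.30, adjusted p = 0.0268) and 0.56 (SE 0.19, adjusted p = 0.0311) on the log2 scale. Their mean levels were 4.47 ± 0.984, 4.39 ± 1.40 and 9.14 ± 1.18 CPM (SD, n = 3) in PBS and 2.13 ± 0.835, 2.30 ± 0.586 and 6.20 ± 0.400 CPM in LPS_T. The first was lost without PBS 2 or LPS_T 1 (adjusted p = 0.0525 and 0.0559). The second was lost without PBS 1, PBS 2, LPS_T 1 or LPS_T 3 (adjusted p = 0.0788 to 0.103), and the third without PBS 3 or any single LPS_T library (adjusted p = 0.0600 to 0.122). Library totals as scaling also ended the caupolican-like and zinc finger homeobox calls (adjusted p = 0.0591 and 0.128). Limma on FPKM ended all 3 (adjusted p = 0.0746, 0.0923 and 0.433 with a pseudocount of 1).

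**Figure D5:**
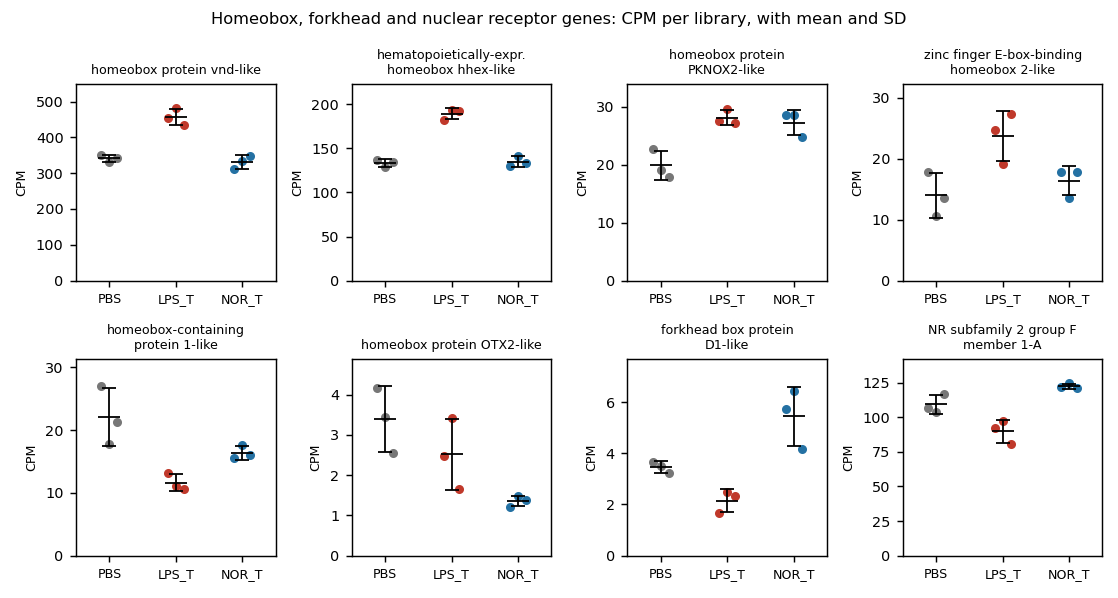
CPM in each library for 6 homeobox genes, FOXD1-like and nuclear receptor subfamily 2 group F member 1-A, with the mean and SD of 3 libraries per title group, on axes that start at 0. For vnd-like and hhex-like LPS_T lies above the rest, PKNOX2-like is raised in all 6 exosome libraries, and the last 2 panels have PBS between LPS_T and NOR_T.

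Of 4 tested nuclear receptor subfamily genes, 0 were called higher, 2 were called lower in LPS_T and 1 in NOR_T against PBS. Nuclear receptor subfamily 2 group F member 1-A, an orphan receptor of the COUP-TF type, was the most abundant. It measured 107, 104 and 117 CPM in PBS, 92.1, 97.1 and 80.8 CPM in LPS_T, and 122, 124 and 121 CPM in NOR_T. Every LPS_T library was below PBS and every NOR_T library above it. The log2 change against PBS was -0.28 (SE 0.08, adjusted p = 0.00879) in LPS_T and 0.16 (SE 0.07, adjusted p = 0.132) in NOR_T, and LPS_T differed from NOR_T by -0.44 (SE 0.07, adjusted p = 3.62e-04). The LPS_T call against PBS was lost without PBS 3 (adjusted p = 0.0502) and with library totals as scaling (adjusted p = 0.307). On FPKM in limma both calls were lost (adjusted p = 0.731 against PBS and 0.195 between the exosome groups with a pseudocount of 1).

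Nuclear receptor subfamily 5 group A member 2-like, a relative of liver receptor homolog, fell in both groups. It measured 12.1, 8.31 and 8.60 CPM in PBS, 6.24, 6.22 and 5.93 CPM in LPS_T, and 6.42, 5.58 and 7.53 CPM in NOR_T. All exosome libraries were below PBS, of which PBS 1 was the highest. The estimated log2 change was -0.64 (SE 0.19, adjusted p = 0.0160) in LPS_T and -0.55 (SE 0.19, adjusted p = 0.0438) in NOR_T. The LPS_T call was lost without PBS 1 or LPS_T 3 (adjusted p = 0.0580 and 0.0507). The NOR_T call was lost without PBS 1, LPS_T 1, LPS_T 2, LPS_T 3, NOR_T 1 or NOR_T 2 (adjusted p = 0.0560 to 0.181) and with the replicate number as a block (adjusted p = 0.0513). Library totals as scaling ended both the LPS_T and the NOR_T call (adjusted p = 0.0568 and 0.119). So did limma on FPKM (adjusted p = 0.129 and 0.221 with a pseudocount of 1).

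Both genes described as nuclear receptor subfamily 1 group D member 2-like, related to the circadian repressor Rev-erb beta, were uncalled. The more abundant had 5.00 FPKM and lay at 8.86 to 13.7 CPM in all 9 libraries. The other measured 14.9 CPM in PBS 1, 1.81 and 3.51 CPM in the other PBS libraries, 3.36 to 4.22 CPM in LPS_T and 2.65 to 4.51 CPM in NOR_T, so that a single PBS library stood out.

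Of 25 other nuclear receptor genes, 16 were tested, with 2 called higher and 3 lower in LPS_T and 2 higher and 0 lower in NOR_T against PBS, beside the 33% and 24.9% of all tested genes called. An orphan steroid hormone receptor 2-like gene measured 3.18, 1.97 and 3.06 CPM in PBS, 15.8, 17.9 and 17.1 CPM in LPS_T, and 11.4, 10.3 and 11.1 CPM in NOR_T, with no overlap among groups. Against PBS, edgeR gave a log2 change of 2.66 (SE 0.18, adjusted p = 1.95e-08) in LPS_T and 2.02 (SE 0.18, adjusted p = 1.02e-06) in NOR_T. Its mean was low, at 2.91 FPKM over all libraries, so it may have reached the level for testing only through the exosome groups. RXR receptors are the shared partners of many nuclear receptors, and the 2 RXR genes below went opposite ways in LPS_T. Retinoic acid receptor RXR-like (evm.TU.scaffold33237.5) was called lower in LPS_T (log2 -0.37, SE 0.05, adjusted p = 5.81e-05) and not in NOR_T (log2 -0.13, SE 0.05, adjusted p = 0.0933). Retinoic acid receptor RXR-alpha-B-like (evm.TU.scaffold54443.3), chosen after its values were seen, was called higher in LPS_T (log2 0.57, SE 0.12, adjusted p = 0.00203) and not in NOR_T (log2 -0.02, SE 0.12, adjusted p = 0.939).

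Of 13 tested cofactors and partners of these families, 2 were called higher and 4 lower in LPS_T, and 3 higher and 4 lower in NOR_T, beside the 33% and 24.9% of all tested genes called. Their median log2 change was -0.05 in LPS_T and -0.13 in NOR_T. Transducin-like enhancer protein 4, a Groucho-type corepressor used by Runt, forkhead and homeobox factors, averaged 147 ± 5.29 CPM (SD, n = 3) in PBS, 236 ± 8.90 CPM in LPS_T and 178 ± 5.76 CPM in NOR_T, and its log2 change was 0.68 (SE 0.06, adjusted p = 1.73e-07) in LPS_T and 0.28 (SE 0.06, adjusted p = 0.00165) in NOR_T. A gene described as nuclear receptor coactivator 6-like (evm.TU.scaffold33565.90) averaged 196 ± 14.8 CPM (SD, n = 3) in PBS, 128 ± 7.51 CPM in LPS_T and 150.1 ± 12.5 CPM in NOR_T, and its log2 change was -0.61 (SE 0.08, adjusted p = 1.41e-05) and -0.38 (SE 0.08, adjusted p = 0.00146). The other gene of that description (evm.TU.scaffold7831.6) was not called, with a log2 change of -0.05 (SE 0.10, adjusted p = 0.753) in LPS_T and -0.13 (SE 0.10, adjusted p = 0.417) in NOR_T.

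Among 37 tested genes of other signal-regulated transcription factors, 12 were called higher and 9 lower in LPS_T, and 10 higher and 5 lower in NOR_T, against the same background shares. STAT5B-like, which carries cytokine signals to the nucleus, measured 152, 152 and 168 CPM in PBS, 286, 270.0 and 274 CPM in LPS_T, and 197, 182 and 197 CPM in NOR_T, with no overlap among groups. Its log2 change was 0.81 (SE 0.06, adjusted p = 4.16e-08) in LPS_T and 0.29 (SE 0.06, adjusted p = 0.00218) in NOR_T. Transcription factor 7-like 2, the nuclear effector of Wnt signals, rose by 0.89 (SE 0.11, adjusted p = 1.71e-05) in LPS_T and 0.90 (SE 0.11, adjusted p = 2.64e-05) in NOR_T, with a log2 difference of -0.01 (SE 0.11, adjusted p = 0.956) between the groups.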

How the data were processed

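RNA of scallop hemocytes was sequenced paired-end from poly(A) libraries, and the library kit, as named by the labels' protocols, gives no strand information. HISAT, StringTie and edgeR appear in the submitters' processing notes without versions. Genome build, counter and counting options: not given in the sources used here. Per the file headers, every gene has 1 FPKM and 1 estimated count in each library. The expected counts deposited by the authors were rounded to whole numbers. The FPKM values deposited by the authors are scaled by gene length and depth.

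Genes with at least 1 FPKM in at least 3 of 9 libraries were tested with edgeR 4.0.16 (R 4.3.3; glmQLFit and glmQLFTest, TMM scaling, 3 groups in a single fit), with Benjamini-Hochberg adjustment over all tested genes. The SE is approximated as the log2 change divided by the square root of F. Alternatives were DESeq2 1.42.0, limma 3.58.1 on log2(FPKM + pseudocount) with pseudocounts of 1 and 0.1, other scalings, no filter, counts per fragment, single libraries left out and a replicate block. The replicate numbers of the titles did not pair the libraries (same-number correlations of -0.0248 to 0.0798). Replicates of a group differed by more than sampling noise (ratio 2.01 to 2.72).

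Members and lists were chosen with earlier results of these data known. After values had been seen, 17 hemocyte, 7 signal transcription factor and 2 nuclear receptor entries that named other proteins were removed from the lists. Named genes are the 2 members with the highest mean FPKM per family, and called members with a mean of at least 1 FPKM whose FPKM ranges did not overlap, up to 12 per comparison and direction; from each context list, at most 2 genes with the smallest adjusted p. Others are named as chosen after their values were seen or to complete a family. Close copies, overlapping genes and antisense genes can share reads, and their values are uncertain. No reference sequence was used here. Of the genes the rule names, 2 are not reported here.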

Additional observations from a re-analysis of the deposited data

Results flagged for a closer look

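In 2 of the 49 tested members the exosome groups lay, in CPM, on opposite sides of PBS in every library. They were picked for this arrangement and for a call between LPS_T and NOR_T, so that call is not separate support. The matching count over all tested genes was not made. FOXD1-like was lower than PBS in all 3 LPS_T libraries and higher in all 3 NOR_T libraries, and LPS_T differed from NOR_T by a log2 of -1.33 (SE 0.26, adjusted p = 0.00127 in edgeR). Nuclear receptor subfamily 2 group F member 1-A showed the same arrangement, with a log2 of -0.44 (SE 0.07, adjusted p = 3.62e-04 in edgeR) between LPS_T and NOR_T. The call of the first held under every setting tried, and that of the second was lost on FPKM in limma (adjusted p = 0.195 with a pseudocount of 1 and 0.252 with 0.1).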

How the results depend on the processing

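Over 18 settings, 22 of 50 pairs of a named member and a comparison kept their call under every setting that applied, and 0 changed direction. These 50 pairs hold only calls with FPKM ranges that did not overlap, so several called genes described above are not among them. Of all called members, 7 of 22 for the exosome mean, 9 of 26 for LPS_T, 2 of 16 for NOR_T and 5 of 15 between the exosome groups held. With library totals as scaling the exosome mean gave 6 lower members, and LPS_T 16 calls with 6 lower. In limma on log2(FPKM + 1) and log2(FPKM + 0.1), which are not corrected for composition, the calls were 9 (8 higher, 1 lower) and 8 (7 higher, 1 lower) for the exosome mean, 13 (11 higher, 2 lower) and 10 (8 higher, 2 lower) for LPS_T, 5 (4 higher, 1 lower) and 4 (2 higher, 2 lower) for NOR_T, and 5 (4 higher, 1 lower) under each between the exosome groups. The calls with a pseudocount of 1 stood beside 17%, 20.1%, 10.8% and 11.9% of all tested genes called. The median of all genes in that fit with a pseudocount of 1 moved to 0.15, 0.17, 0.12 and 0.02. The cause was not tested. Leaving out single libraries gave 17 to 23 calls for the exosome mean (8 to 11 higher, 7 to 12 lower), 19 to 27 for LPS_T (10 to 11 higher, 9 to 17 lower), 14 to 17 for NOR_T (6 to 8 higher, 7 to 11 lower) and 11 to 16 between the exosome groups (6 to 8 higher, 5 to 8 lower). The lowest lower counts came without LPS_T 1 (7 for the exosome mean and 9 for LPS_T), and LPS_T gave 10 lower without LPS_T 3. Without PBS 1 the counts were 19, 21, 16 and 16. DESeq2 gave 24, 27, 17 and 16 calls. With no filter all 128 members were tested and 26, 26, 17 and 16 were called, beside 17.8%, 19.1%, 15.7% and 13.7% of all genes. With the replicate number as a block the calls were 21, 25, 15 and 16; the numbers share no stated origin. Low-level members are limited by depth, about 5130000 fragments in PBS 1. Calls of genes outside the rule, Runt and the list genes included, were not followed under these settings.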
